A study of Ovis aries with 18 samples.

Results

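The loci described here are stretches of the sheep genome from which testis reads were assembled into transcripts and which carry no Ensembl gene ID. The authors named them with the prefix XLOC. They were chosen by their measured levels and not by diet, as the XLOC IDs with at least 1 CPM (a count scaled to the total of its library, the usual depth-normalized unit) in at least 9 of the 18 lambs. A locus near 1 CPM could still pass mainly through the lambs of 1 diet. The rule kept 2089 of the 6831 XLOC IDs (30.6%), out of 29589 IDs in all, and they are called assembled loci below. Ensembl IDs, which begin with ENSOARG, are given beside them under the same rule, which 14559 of 22758 passed (64.0%). RNA was taken from the testicle of 18 male Santa Ines lambs aged 60 days, with 1 poly(A)-captured library per lamb. The mothers of 9 lambs ate a control diet of corn and soybean and those of the other 9 a gossypol-rich diet of cottonseed, both from conception until 60 days after birth, so the lambs met the diet through the ewe. Libraries held between 14468612 and 22334428 counts.

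Cufflinks joins aligned reads into transcript models, and Cuffmerge pools the models of all libraries with the known annotation, so that any transcribed stretch outside the annotated genes receives an ID of its own. Such a locus can be a long non-coding RNA, a protein-coding gene missing from the annotation, or an unannotated piece of a neighbouring gene. The testis is known for transcribing an unusually wide part of the genome, mostly in germ cells around meiosis. Gossypol, a polyphenol of cotton seed, is known to impair sperm production in males that eat it. The files give an ID and a count, with no position, sequence, length or symbol, so the loci are described by their levels alone. Markers of testis cell types were not checked, since 0 IDs matched the available gene table.

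Gossypol lamb H41 stood apart from the other 17 lambs in its assembled loci. It was the highest of the 18 lambs at 635 of the 2089 loci (30.4%), where an even spread would give 5.56% to each lamb, and the next most frequent highest lamb was gossypol lamb H01, with 205 loci (9.81%). It was the lowest lamb at 334 loci, and control lamb H29 at 298. Among Ensembl IDs, H41 was highest at 16.2%, closely followed by H29 with 14.2%. Of the 3795 with a mean log2 CPM under 3, the range of most assembled loci, H41 was highest at 16.5% and H08 at 9.62%. At 66 loci H41 lay more than 1 log2 unit above the next lamb, of 78 loci at which any lamb did so, and at 93 loci it lay more than 1 log2 unit below the next lamb, of 174. The 4742 XLOC IDs that failed the rule showed the same lamb: 1221 of them reached 1 CPM in H41, against 171 to 598 in each of the other lambs, and H41 was highest at 40.5% of them. Control lamb H44 was next, with 598. The rule used the same 1 CPM values, so IDs raised in few lambs fell into this failing set. Over all 6831 XLOC IDs, 2961 reached 1 CPM in H41 and 2604 in H44. Of the 2089 assembled loci, 1740 did so in H41 and 2006 in H44. The part of these libraries in the diet differences is given below by leaving them out.

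Assembled loci were mostly weakly expressed. CPM counts reads per ID and not per length, and lengths were not used here, so the values state how much of a library a locus took and not how many molecules it made. The median over lambs had its own median at 2.69 CPM over the 2089 loci, and 10% of them lay below 1.14 CPM and 10% above 18.1 CPM. For the Ensembl IDs the median was 22.7 CPM, with 10% below 2.44 CPM and 10% above 122.7 CPM. A median of at least 10 CPM was reached by 375 assembled loci (17.9%) and by 69.9% of Ensembl IDs, and a median of at least 100 CPM by 31 loci (1.48%) and 13.4%. All 18 lambs reached 1 CPM at 1093 loci (52.3%), against 88.8% of Ensembl IDs. At 42 loci (2.01%) at least 5 more gossypol than control lambs reached 1 CPM, and at 18 loci (0.862%) at least 5 more control lambs did, against 0.584% and 0.11% of Ensembl IDs, of which fewer lay near 1 CPM. The rule counted the same 1 CPM values, and a locus could pass it mainly through 1 diet, so these numbers are a description. A count of 0 in at least 1 lamb occurred at 31 loci (1.48%) and at 0.144% of Ensembl IDs.

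**Figure D1:**
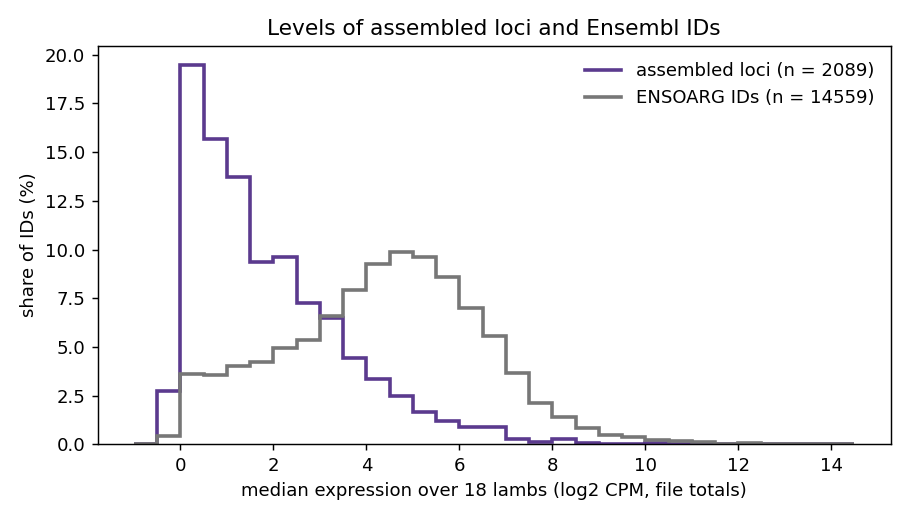
Share of IDs (y axis, %) by their median expression over the 18 lambs (x axis, log2 CPM on file totals), for the 2089 assembled loci and the 14559 Ensembl IDs that passed the same rule. The assembled loci pile up at the lower limit set by the rule and the Ensembl IDs peak further right, with medians of 2.69 and 22.7 CPM.

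The limit of the rule cut through a dense range of levels. XLOC_005352, XLOC_015840 and XLOC_015822 lay just inside, each with 1.005 CPM in the ninth highest lamb. Just outside lay XLOC_033062 with 0.998 CPM in that lamb, XLOC_019745 and XLOC_027471 with 0.99 CPM each. In all, 99 assembled loci reached 1 CPM in exactly 9 lambs. No assembled locus shared all of its counts with another ID, whereas 1361 of the Ensembl IDs did.

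The values of single loci below are CPM after TMM normalization. XLOC_022948 was by far the most abundant assembled locus. It ran from 666 CPM in H29 to 1453 CPM in H32 in control lambs, with a median of 899 CPM, and from 872 CPM in H12 to 1995 CPM in H41 in gossypol lambs, with a median of 1161 CPM. The lambs of both diets overlapped, with 4 control lambs below every gossypol lamb. Its log2 fold change, gossypol against control, was 0.33 (standard error 0.18, adjusted p = 0.275 in edgeR's quasi-likelihood test over all 18640 tested IDs), and 0.22 without H41.

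XLOC_011590 spread more widely over the control lambs than over the gossypol lambs. Its control lambs ran from 158 CPM in H37 to 1000 CPM in H44, with a median of 371 CPM, and its gossypol lambs between 247 and 559 CPM (median 369 CPM). Its log2 fold change was -0.15 (standard error 0.27, edgeR adjusted p = 0.743), and 0.082 without H44. XLOC_003714 ran from 62.5 to 467 CPM in control lambs, with a median of 126.6 CPM, and from 157 CPM to 723 CPM in H41 in gossypol lambs, with a median of 270 CPM. Of its control lambs 5, namely H06, H20, H22, H29 and H37, lay below every gossypol lamb, and its log2 fold change was 0.65 (standard error 0.37, edgeR adjusted p = 0.278), and 0.42 without H41.

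The other most abundant loci varied less between lambs than XLOC_011590 and XLOC_003714. XLOC_012700 had a control median of 297 CPM and a gossypol median of 387 CPM, and XLOC_012875 of 378 and 349.9 CPM. XLOC_025939 had medians of 362 and 298 CPM, and XLOC_008601 of 333 and 303 CPM. XLOC_028070 had medians of 290.5 and 313 CPM, with H41 at 870 CPM and the next lamb at 438 CPM, and its log2 fold change was 0.41, or 0.17 without H41. The lambs of both diets overlapped at all 8 of these loci, and none had an adjusted p below 0.236.

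Assembled loci took a small share of each library. It was 2.07% ± 0.219 (SD, n = 9) in control lambs, from 1.83% in H29 to 2.52% in H44 with a median of 2.004%. In gossypol lambs it was 2.23% ± 0.249 (SD, n = 9), from 1.998% in H25 to 2.82% in H41 with a median of 2.22%. The difference of 0.169 percentage points was smaller than the SD of either diet (exact permutation test, 2-sided, over 48620 assignments, p = 0.148, unadjusted). It depended on single lambs. Without H44 it was 0.226 (p = 0.0267 in the exact test, unadjusted), without H41 it was 0.096 (p = 0.294), and without both 0.153 (p = 0.0462).

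The number of assembled loci at 1 CPM or more was 1812 ± 115 (SD, n = 9) in control lambs, from 1606 in H29 to 2006 in H44, and 1864 ± 62.7 (SD, n = 9) in gossypol lambs, from 1740 in H41 to 1938 in H35. The rule counted the same 1 CPM values, so this is a description. Over all 6831 XLOC IDs, which the rule did not choose, 2085 ± 237.5 (SD, n = 9) reached 1 CPM in control and 2298 ± 266.5 (SD, n = 9) in gossypol lambs, with H41 the highest of the 18 lambs at 2961. The difference of 212.1 did not pass the threshold (exact permutation test, 2-sided, p = 0.0908, unadjusted, a comparison added after seeing the data). It was 129 without H41 (p = 0.178), 277 without H44 (p = 0.00555) and 194.0 without both (p = 0.00948) in the same exact test. The 10 most abundant loci held 17.8% ± 2.47 of all counts in assembled loci in control and 19.2% ± 1.85 in gossypol lambs (SD, n = 9 each, p = 0.169 in the same exact test, unadjusted). The difference was 1.49 percentage points for these 10 loci, 0.996 without H41, and 0.529 for the 50 most abundant (p = 0.532, exact test).

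**Figure D2:**
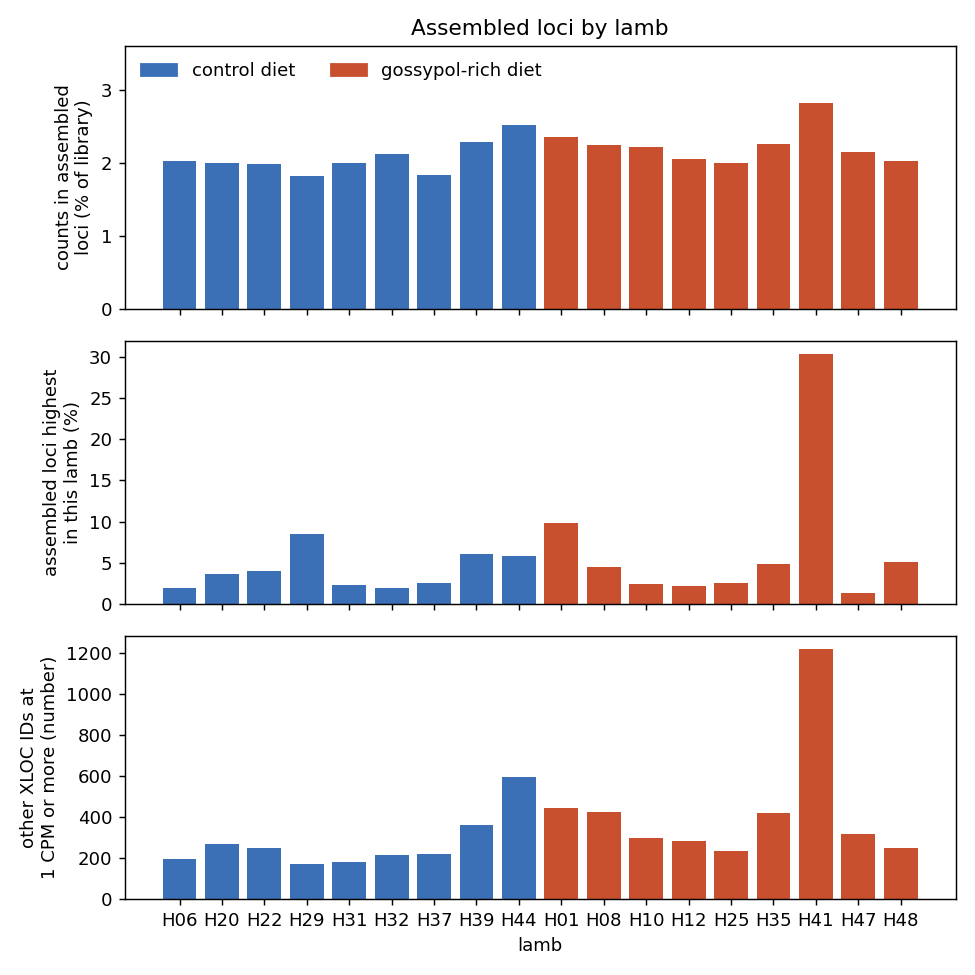
For each of the 18 lambs (x axis), the share of its counts in the 2089 assembled loci (top, %), the share of these loci at which it was the highest lamb (middle, %) and the number of the other 4742 XLOC IDs at 1 CPM or more (bottom). Bars are single libraries, coloured by diet. H41 reaches 2.82%, 30.4% and 1221, against at most 2.52%, 9.81% and 598 in any other lamb. The bottom panel counts IDs that failed the rule on the same 1 CPM values. Over all 6831 XLOC IDs the counts were 2961 in H41 and 2604 in H44.

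Within a diet, assembled loci varied more between lambs than Ensembl IDs. The median SD of log2 CPM within diet was 0.55 over the 2089 loci and 0.39 over the 14559 Ensembl IDs. At low levels the medians were close. Among IDs with a mean log2 CPM under 1, the medians were 0.64 for 785 assembled loci and 0.64 for 1079 Ensembl IDs, and from 1 to 2 they were 0.56 and 0.57. From 2 to 3 they were 0.50 and 0.48. The assembled loci had the higher medians from there on, with 0.44 against 0.40 from 3 to 4 and 0.42 against 0.35 from 4 to 5, where the medians lay furthest apart, and 0.38 against 0.33 from 5 to 6. At 6 and over, 53 loci had a median SD of 0.38 and 3200 Ensembl IDs of 0.33. IDs are not independent replicates, so these medians are descriptions without a test.

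Some assembled loci were on in most lambs and close to 0 in the rest. For each locus the lambs were ordered by log2 CPM, and the widest gap between neighbours with at least 3 lambs on each side was taken. It was over 1 log2 unit at 36 loci (1.72%) and at 0.893% of Ensembl IDs, over 2 at 9 loci (0.431%) and 0.0893%, and over 3 at 3 loci (0.144%) and 0.0481%. The 5 loci with the widest gaps are described next.

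XLOC_030477 had the widest gap of the assembled loci, at 4.35 log2 units. Its counts were 3 to 9 in 4 lambs, control lambs H20 and H44 and gossypol lambs H08 and H48, and 209 to 1174 in the other 14. In CPM, the control lambs ran from 0.313 to 71.5 with a median of 16.1, and the gossypol lambs from 0.148 to 69.6 with a median of 34.6. The low lambs were thus split evenly over the diets, and the log2 fold change was 0.72 (standard error 0.79, edgeR adjusted p = 0.583), and 1.22 without H39. ENSOARG00000015485 was the ID with the most similar pattern over the 18 lambs (Pearson r = 0.97, chosen after its values were seen). It was low in the same 4 lambs, with 0 to 3 counts, and had 148 to 1203 counts in the other 14.

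XLOC_012651 was at 0 counts in 3 lambs, control lambs H06 and H22 and gossypol lamb H01. The other 15 lambs had 24 to 98 counts. A count of 0 allows up to 3 counts, or 0.165 CPM in H01, and the lowest of the other lambs was at 1.35 CPM. XLOC_031017 had 0 to 2 counts in 6 lambs, control lambs H32 and H39 and gossypol lambs H08, H10, H12 and H47, and 46 to 199 counts in the other 12. The lambs that were low at XLOC_012651 were none of those low at XLOC_031017.

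XLOC_006318 was low in 6 lambs, control lambs H22, H37 and H44 and gossypol lambs H25, H35 and H41, with 2 to 8 counts. The remaining 12 lambs had 75 to 174 counts. XLOC_006319, the next number, was the ID most like it (r = 0.89 over 18 lambs, chosen after its values were seen). It is not among the 2089 loci, since its ninth highest lamb missed 1 CPM. Its counts were 0 to 6 in those 6 lambs and 8 to 51 in the other 12.

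XLOC_005413 differed from the other gap loci in that its 4 lowest lambs were all of the control diet. H06, H20, H22 and H29 had 1 to 4 counts, and the other 14 lambs 36 to 940. The control median was 1.83 CPM and the highest control lamb was H44 with 35.3 CPM, while gossypol lambs lay between 2.37 and 58.7 CPM (median 14.4 CPM). Its log2 fold change was 1.30 (standard error 0.87, edgeR adjusted p = 0.356), and 2.097 without H44.

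By SD of log2 CPM within diet, the most variable loci were XLOC_030477 with 2.81, XLOC_005413 with 2.43, XLOC_031017 with 2.39, XLOC_026981 with 2.37 and XLOC_002830 with 2.22. XLOC_026981 was at 0 counts in 4 lambs and reached 6.48 CPM in H48. XLOC_002830 was low in 5 lambs, all of the gossypol diet, with 0 counts in H25, H35 and H41, 1 in H01 and 3 in H47. The control lambs had 14 to 245 counts, up to 10.9 CPM in H44, and the other 4 gossypol lambs 77 to 147, up to 7.54 CPM in H08. Their adjusted p-values in edgeR's comparison of the diets were 0.952 and 0.792, so neither passed the threshold.

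**Figure D3:**
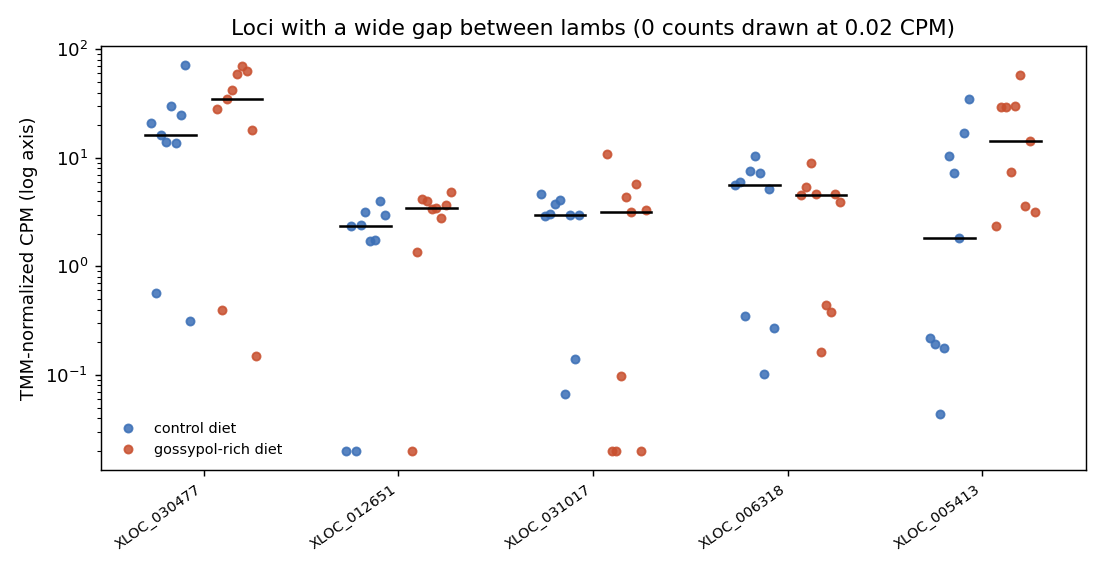
TMM-normalized CPM (y axis, log scale) of the 5 assembled loci with the widest gap between neighbouring lambs (x axis). Each point is 1 lamb, coloured by diet, black bars are medians over 9 lambs, and counts of 0 are drawn at the bottom. Each locus splits into a low and a high set of lambs, and at XLOC_005413 the 4 lowest points are all control lambs.

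The diets were compared at all 18640 IDs with enough counts, of which 2089 are the assembled loci, using the quasi-likelihood test of edgeR and adjusting p-values over all of them (Benjamini-Hochberg). RNA from whole testicle was measured, so fewer cells of a type and less RNA per cell cannot be told apart. At an FDR of 5%, 0 assembled loci passed, as did 0 of all tested IDs (0%). The lowest adjusted p among the loci was 0.0909. With the same counts DESeq2 called 84 loci at this FDR (4.02%, against 4.83% of all IDs with an adjusted p), edgeR's exact test 57 (2.73%, against 3.46%) and its likelihood ratio test 60 (2.87%, against 3.57%), and limma-voom called 0 of either. The shares of the 3 tests that made calls were each below those of all tested IDs. When the FDR was set at 10%, 27 loci passed edgeR's quasi-likelihood test (1.29%), below the 1.78% of all tested IDs. Of these, 12 were higher in gossypol lambs (0.574%, against 0.51% of all tested IDs) and 15 were lower (0.718%, against 1.27%). At 10%, DESeq2 called 197 loci (9.43%, against 12.1% of all IDs with an adjusted p), the exact test 152 (7.28%, against 9.29%), the likelihood ratio test 164 (7.85%, against 9.93%), edgeR's newer quasi-likelihood method 62 (2.97%, against 3.59%) and limma-voom 0 of either.

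The calls at 10% hung on single lambs. Leaving out each lamb in turn, 0 loci passed in 11 of the 18 fits, those without control lambs H06, H20, H22, H29 and H37 or gossypol lambs H08, H10, H25, H35, H41 and H47. In those 11 fits 0 of all tested IDs passed as well. The other 7 fits gave 80 loci (3.83%, against 4.52% of all tested IDs, without H12) to 344 loci (16.5%, against 19.2%, without H44), and the others were those without H31, H32, H39, H01 and H48. In each of the 7 the share of assembled loci was below that of all tested IDs. Without H44, 108 loci also passed 5% (5.17%, against 6.79%). With H41 and H44 both left out, 215 loci passed 10% (10.3%, against 13.6%) and 44 passed 5% (2.11%, against 3.4%). No assembled locus separated the diets without overlap, against 0.0107% of all tested IDs.

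At an unadjusted p under 0.05 there were 417 assembled loci (20%), against 23.2% of all tested IDs. Of these, 260 were higher in gossypol lambs (12.4%, against 11.8%) and 157 were lower (7.52%, against 11.4%). Without H41 there were 150 higher loci (7.18%, against 9.7%), of which 131 were among the 260, and 155 lower loci (7.42%, against 10.3%). Leaving out a control lamb also moved the number of higher loci. It fell to 165 without H20 (7.9%, against 8.24%), 163 without H29 (7.8%, against 8.3%) and 168 without H37 (8.04%, against 8.81%). It rose to 370 without H44 (17.7%, against 15.4%). The lower loci were fewest without H29, at 118 (5.65%, against 8.11%), and most numerous without H48, at 198 (9.48%, against 14.4%). The median log2 fold change was 0.13 over the assembled loci, 0.00 over the Ensembl IDs passing the same rule and 0.03 over all tested IDs. Of the loci, 62.0% had a log2 fold change above 0, as did 50.5% of those Ensembl IDs. Without H41 the median was 0.07 for assembled loci and -0.01 for Ensembl IDs, and 58.6% and 49.3% lay above 0.

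At matched levels, weakly expressed Ensembl IDs also had medians above 0. Under a mean log2 CPM of 1 the median log2 fold change was 0.16 for assembled loci and 0.23 for Ensembl IDs, and from 2 to 3 it was 0.14 and 0.11. From 4 to 5 it was 0.05 against -0.02, and at 6 and over 0.04 against -0.06. The medians of both classes were thus lower from 4 upwards than under 3, and those of Ensembl IDs covered the wider range. Without H41 the assembled loci had medians of 0.10 under 1 and 0.07 from 2 to 3, and the Ensembl IDs of 0.22 and 0.08. The shares at an unadjusted p under 0.05 differed between levels too, more in Ensembl IDs than in assembled loci. Under 1, 12.4% of assembled loci and 19.5% of Ensembl IDs were higher in gossypol lambs, and 6.62% and 5.10% were lower. From 1 to 2 these shares were 11.2% and 19.5% higher, and 7.42% and 8.57% lower. From 2 to 3 they were 12.8% and 16.9% higher, and 8.12% and 7.78% lower. From 3 to 4 they were 15.1% and 12.9% higher, and 8.44% and 10.9% lower. From 4 to 5 they were 13.3% and 9.76% higher, and 7.03% and 14.6% lower, and from 5 to 6 they were 12.96% and 6.54% higher, and 9.26% and 15.6% lower. At 6 and over they were 9.43% and 6.63% higher, and 13.2% and 17.4% lower. Assembled loci thus had the smaller share of lower calls from 3 upwards and the larger share of lower calls under 1 and from 2 to 3, as a description without a test.

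**Figure D4:**
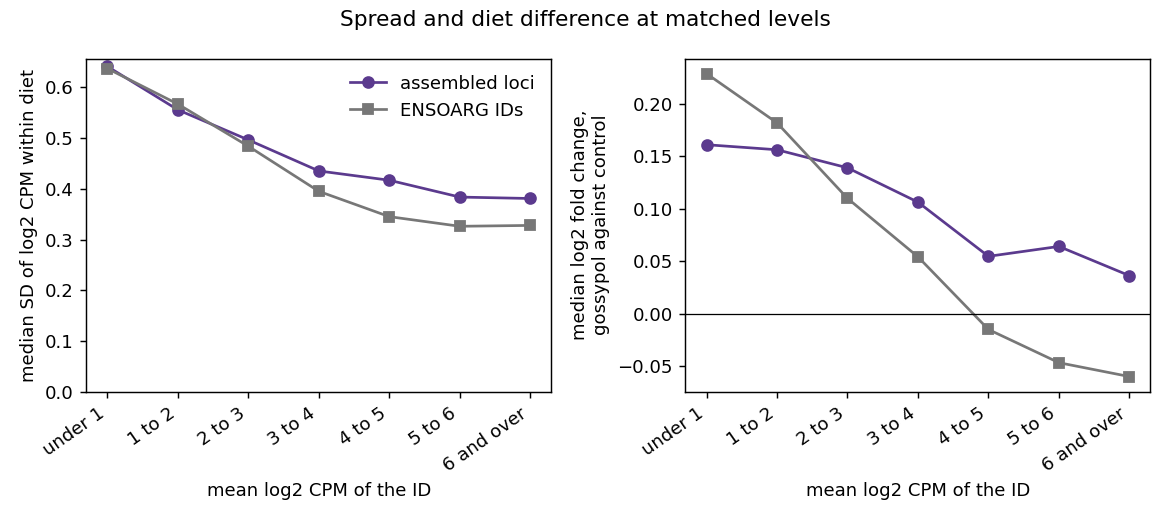
Median SD of log2 CPM within diet (left) and median log2 fold change of gossypol against control lambs (right), by the mean log2 CPM of the ID (x axis), for assembled loci and for Ensembl IDs passing the same rule. Points are medians over the IDs of a bin, without a test. The SDs coincide at low levels (0.64 and 0.64 under 1) and those of assembled loci lie higher from 2 upwards, and the fold changes of both classes are lower at higher levels.

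The loci with the lowest p-values did not pass an FDR of 5% in edgeR's quasi-likelihood test, so their values are given as differences between these lambs. The 11 loci of lowest p did pass it with DESeq2 (adjusted p from 0.00138 to 0.00652) and in edgeR without H44 (0.015 to 0.0259), and did not with limma-voom (0.123 to 0.133) or in edgeR without H41 (0.145). The 5 lowest p-values among loci higher in gossypol lambs belonged to XLOC_028720, XLOC_027767, XLOC_000628, XLOC_013399 and XLOC_016804. XLOC_028720 had the tightest values. Its control lambs lay between 14.6 and 24.7 CPM (median 17.3 CPM), and its gossypol lambs between 22.6 and 39.5 CPM (median 27.6 CPM). In 7 gossypol lambs it was higher than in any control lamb. The highest control lamb was H44 and the highest gossypol lamb H41. The log2 fold change was 0.61 (standard error 0.13, edgeR adjusted p = 0.0909), and 0.53 without H41.

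XLOC_000628 ran from 3.49 CPM in H06 to 18.9 CPM in H31 in control lambs, with a median of 6.70 CPM. In gossypol lambs it ran from 17.2 CPM in H48 to 57.1 CPM in H41, with a median of 21.2 CPM, and the next highest lamb was H08 with 31.3 CPM. Of the control lambs, 8 lay below every gossypol lamb. The log2 fold change was 1.47 (standard error 0.32, edgeR adjusted p = 0.0909), and 1.23 without H41.

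XLOC_027767 had 1.58 to 4.03 CPM in control lambs, with a median of 2.56 CPM, and 3.12 to 10.9 CPM in gossypol lambs, with a median of 5.35 CPM. In XLOC_013399 the control lambs lay between 3.06 and 14.8 CPM (median 4.53 CPM), and the gossypol lambs between 5.96 and 24.7 CPM (median 18.8 CPM). XLOC_016804 was near the limit of the rule, with 3 to 47 counts per lamb, a control median of 0.436 CPM and a gossypol median of 1.37 CPM. In 8 gossypol lambs it was higher than in any control lamb, of which the highest was H44 with 1.03 CPM. It thus passed the rule mostly through gossypol lambs, and its diet difference is a description. Control and gossypol lambs overlapped at all of these loci. Their log2 fold changes were 1.12, 1.45 and 1.46, with edgeR adjusted p-values of 0.0909, 0.0945 and 0.0945.

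Among loci lower in gossypol lambs, the 5 lowest p-values belonged to XLOC_032463, XLOC_032955, XLOC_028660, XLOC_009044 and XLOC_005353. XLOC_032463 had the lowest p of all assembled loci. Its control lambs ran from 1.12 CPM in H44 to 40.9 CPM in H29, with a median of 5.57 CPM, and its gossypol lambs between 0.506 and 4.79 CPM (median 1.51 CPM). H06, H20, H22 and H29 had at least 22.1 CPM, and no other lamb was above 5.57 CPM. The log2 fold change was -2.93 (standard error 0.62, edgeR adjusted p = 0.0909).

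XLOC_032955 ran from 4.43 to 54.6 CPM in control lambs, with a median of 16.4 CPM, and from 1.01 to 8.16 CPM in gossypol lambs, with a median of 3.43 CPM. Of the control lambs, 5 exceeded all gossypol lambs, and the log2 fold change was -2.40 (standard error 0.51, edgeR adjusted p = 0.0909). XLOC_028660 had a control median of 9.28 CPM, from 2.15 to 17.6 CPM, and a gossypol median of 1.69 CPM, from 0.378 to 4.75 CPM. XLOC_009044 had medians of 1.79 and 1.12 CPM, and XLOC_005353 of 4.44 and 1.71 CPM. The diets overlapped at these loci too, where the lowest control lambs lay among the gossypol lambs. Their log2 fold changes were -2.11, -1.57 and -1.95, with edgeR adjusted p-values of 0.0909, 0.0945 and 0.0945.

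**Figure D5:**
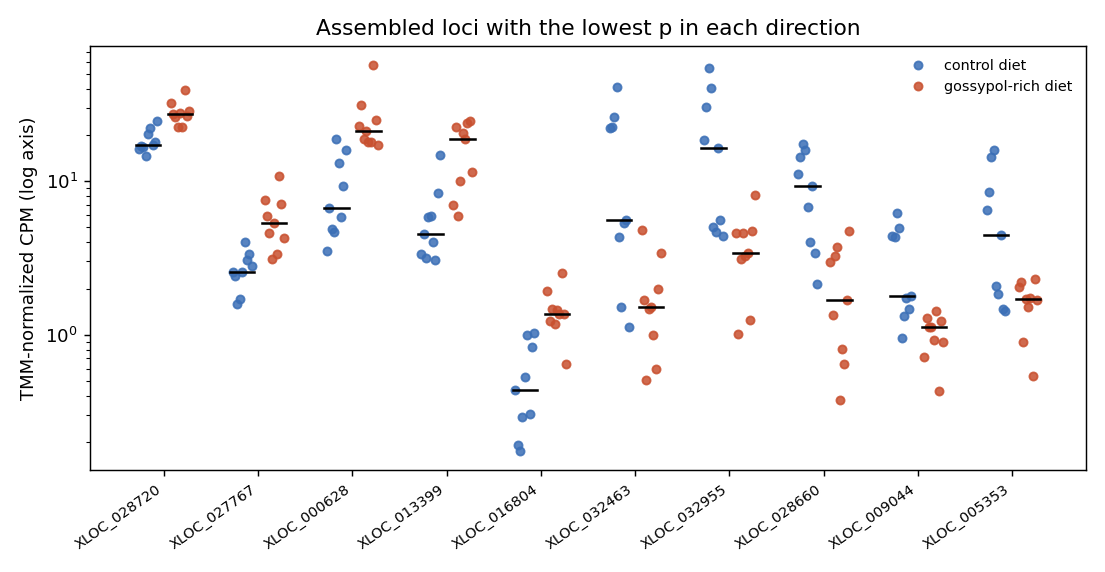
TMM-normalized CPM (y axis, log scale) of the 5 assembled loci with the lowest p in each direction (x axis), higher in gossypol lambs on the left and lower on the right. Each point is 1 lamb, coloured by diet, and black bars are medians over 9 lambs. The diets overlap at every locus, as in XLOC_032463, where 4 control lambs lie at or above 22.1 CPM and the rest among or near the gossypol lambs.

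The same control lambs stood at the far side of most of these loci. At all 27 loci called at an FDR of 10%, H20, H22 and H29 lay beyond every gossypol lamb, above or below, and H06 and H37 did so at 24. H44 did so at 6, H39 at 6, H32 at 7 and H31 at 13. These loci were called on the same lambs, so the counts describe where the difference lies and test nothing. Among gossypol lambs, H41 lay beyond every control lamb at 25 of the 27, and H48 at 5.

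The study's own list of significant genes holds 11 XLOC IDs, and all 11 were among the assembled loci, 5 higher and 6 lower in gossypol lambs. Their share of that list was close to the 12.5% that XLOC IDs made up of all IDs passing the rule. These 11 loci had the 11 lowest p-values of the 2089 loci. The study called them with edgeR at an FDR stricter than 5%. In edgeR's quasi-likelihood test here their adjusted p ran from 0.0909 to 0.0945, so none passed 5%. The list was called on these lambs, so this is no independent evidence of their direction. Besides the 10 loci above it names XLOC_013357, with a control median of 1.99 CPM, a gossypol median of 0.499 CPM and a log2 fold change of -1.80 (standard error 0.43, edgeR adjusted p = 0.0945). This locus passed the rule mostly through control lambs. The further 16 loci at an FDR of 10% had log2 fold changes between -2.40 and 1.66. Some of them had the median of 1 diet under 1 CPM, as XLOC_012590 in control lambs (0.702 CPM) and XLOC_033104 in gossypol lambs (0.771 CPM). Such loci could pass the rule mainly through the diet where they were higher. XLOC_025458 was the most abundant of the 27, with medians of 89.3 and 139.6 CPM and a log2 fold change of 0.54 (standard error 0.14, edgeR adjusted p = 0.0945).

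For comparison, the lowest p-values among Ensembl IDs were also short of an FDR of 5% in edgeR's quasi-likelihood test. ENSOARG00000018143 had medians of 1.28 CPM (control) and 4.56 CPM (gossypol), with 8 control lambs below the lowest gossypol lamb (log2 fold change 1.65, standard error 0.31, edgeR adjusted p = 0.0835). ENSOARG00000001217, which shares all its counts with other IDs, had medians of 55.8 and 15.3 CPM, with 8 control lambs above the highest gossypol lamb (log2 fold change -1.60, standard error 0.30, edgeR adjusted p = 0.0835). The files pair no symbols with these IDs.

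For the 5 loci of lowest p in each direction, the most similar ID over the 18 lambs had a Pearson r between 0.90 and 0.96. It was an Ensembl ID for 8 loci and an XLOC ID for 2, where 81.7% of the 17270 IDs compared were Ensembl IDs. XLOC_027767 was most like XLOC_028720 (r = 0.90), which in turn was most like XLOC_000628 (r = 0.92). XLOC_032955 had the highest value, 0.96 with ENSOARG00000001652. Several of these loci were alike among themselves, as XLOC_005353 and XLOC_032463 (r = 0.92). All share libraries and were picked for a difference between the same lambs, so high values are a description.

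Loci with consecutive numbers were more alike across lambs than loci with numbers further apart, as a description without a test. What the numbers follow is not given in the sources used here. Among the 2089 loci, 379 pairs had consecutive numbers, with a median r of 0.23 over the 18 lambs, and 30 pairs (7.92%) had an r over 0.8. For numbers 2 apart the median was 0.14 over 341 pairs, with 1.76% over 0.8, and for numbers 10 apart it was 0.05 over 299 pairs, with 1.34%. For numbers 100 apart it was 0.03 over 235 pairs, with 0.426%, and for numbers 1000 apart 0.02 over 138 pairs, with 2.9%. The median was lower at each wider distance, while the share over 0.8 did not follow that order beyond consecutive pairs. Without H41 and H44 the median of consecutive pairs was 0.21. The closest pair was XLOC_031521 and XLOC_031522 (r = 0.97), with log2 fold changes of -0.81 and -0.70 (edgeR adjusted p = 0.108 and 0.142). XLOC_015592 and XLOC_015593 followed (r = 0.95), with 0.43 and 0.36 (adjusted p = 0.48 and 0.514). Among the 27 loci called at an FDR of 10%, 1 pair was consecutive, XLOC_005353 and XLOC_005354, both lower in gossypol lambs with log2 fold changes of -1.95 and -2.40.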

How the data were processed

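Per the labels and the study's methods, the authors trimmed single-end reads with Trim Galore 0.4.4, aligned them with TopHat2 2.1.1 to Oar_v3.1, assembled transcripts with Cufflinks 2.2.1 and Cuffmerge, and counted reads per ID with HTSeq (intersection-nonempty mode). The strand setting is not given in the sources used here, so antisense and overlapping loci are uncertain. The deposited values are these raw counts, 1 file per lamb. Groups came from the sample titles, and lambs are separate animals. The closest pair of lambs within a diet, H25 and H35, differed beyond sampling noise (chi-square over degrees of freedom 13.2), so no library was counted as a repeat.

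These counts were tested in edgeR 4.0.16 (R 4.3.3) with filterByExpr (minimum count 10, minimum total 15), TMM, the quasi-likelihood test (glmQLFit, glmQLFTest) and Benjamini-Hochberg adjustment over all 18640 tested IDs, 3158 of them XLOC IDs. Log2 CPM used a prior count of 2. Levels and the share of counts used file totals. The shares of counts per lamb and the number of all XLOC IDs at 1 CPM were compared by exact permutation tests, with unadjusted p-values. The number of assembled loci at 1 CPM is given as a description only, since the rule used the same values. Each count test was tested on simulated data. Alternatives were RLE normalization, 2 other filters, the exact and likelihood ratio tests, the newer quasi-likelihood method, DESeq2 1.42.0, limma-voom (limma 3.58.1), identical IDs kept once and each lamb left out. Leaving out H41 with H44 together, leaving out H41 for the variation between lambs, the unsquared coefficient of variation and the number of all XLOC IDs at 1 CPM were chosen after seeing the data.

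The assembled loci, rules and lists were chosen with earlier results of these data known. Named loci were the 8 most abundant, the 5 with the lowest p in each direction, the 5 widest gaps, the 5 most variable, those nearest the limit of the rule, those in the study's list, the 2 Ensembl IDs with the lowest p in each direction, and the IDs most like the loci of lowest p. Others are said to be chosen after their values were seen; XLOC_025458, XLOC_005354 and the closest pairs by number are too. Cell type marker lists were not applied, since 0 IDs matched the available gene table.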

Additional observations from a re-analysis of the deposited data

Results flagged for a closer look

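In 58 groups of 9 lambs (26 named loci and 3 measures per lamb, each within a diet), the highest or lowest lamb was compared with its nearest neighbour by Dixon's criterion, which chance meets in about 5% of groups. Several of the loci were named for their gaps, spread or low p, so this rate does not carry over to them. The criterion was met in 5 groups. The share of counts in assembled loci was 2.82% in gossypol lamb H41, against 2.35% in the next lamb. XLOC_028070 was at 9.77 log2 CPM in H41, against 8.78 in the next gossypol lamb, and XLOC_000628 was at 5.84 log2 CPM in H41, against 4.97. XLOC_012651 was lowest in gossypol lamb H01, at -3.20 log2 CPM, a value that the prior count sets for a count of 0, against 0.54 in the next gossypol lamb. XLOC_008601 was lowest in control lamb H44, at 7.62 log2 CPM, against 8.24. H41, the lamb that was highest at 30.4% of the assembled loci, accounted for 3 of the 5.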

How the results depend on the processing

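At an FDR of 5% the count of 0 loci became 84 with DESeq2, 57 with edgeR's exact test, 60 with its likelihood ratio test and 44 without H41 and H44. It stayed at 0 under the other 6 settings, and with each lamb left out in turn it ran from 0 to 108. At an FDR of 10% the 27 loci became 197, 152 and 164 with those 3 tests, 62 with the newer quasi-likelihood method, 0 with limma-voom, 215 without H41 and H44, and 0 to 344 with each lamb left out. Wherever loci were called at either FDR, their share was below that of all tested IDs. It was 4.02% against 4.83% with DESeq2 at 5%, and 16.5% against 19.2% without H44 at 10%. At an unadjusted p under 0.05 the number of loci moved with each lamb left out. Those higher in gossypol lambs ran from 150 (7.18%, against 9.7% of all tested IDs, without H41) to 370 (17.7%, against 15.4%, without H44). Those lower ran from 118 (5.65%, against 8.11%, without H29) to 198 (9.48%, against 14.4%, without H48). The difference in the share of counts was 0.153 percentage points without H41 and H44 (exact p = 0.0462) and 0.096 to 0.226 with each lamb left out. The log2 ratio of the median SD, assembled loci over Ensembl IDs, was 0.52, and became 0.45 on biological coefficients of variation (0.90 on their squares, which doubles a log2 ratio by construction), 0.50 on file totals, 0.56 with a prior count of 0.5 and 0.50 without H41. Of 792 values of 36 named IDs under an alternative, 79 passed an FDR of 5%, which no reported value did, and 18 changed direction, all in 6 loci without a call. With each lamb left out, the log2 fold change ran from -0.27 to 0.082 in XLOC_011590, -0.11 to 0.13 in XLOC_012875, -0.41 to 0.33 in XLOC_031017, -0.31 to 0.32 in XLOC_026981 and -0.77 to 0.041 in XLOC_002830. With limma-voom it was -1.67 in XLOC_031017 and 0.049 in XLOC_006318. The causes were not tested. The study describes a completely randomized design, so no paired analysis was made. The diets were given to the ewes, and whether any lambs share a mother is not given in the sources used here. Loci with few counts per lamb are limited by counting error.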
